A study of Mus musculus with 12 samples.

Results

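The genes described here encode nuclear subunits of respiratory complexes I to IV, with complex I assembly factors that carry the same Nduf prefix. They were chosen by symbol: every probe set with a single gene symbol beginning with Nduf, Uqcr, Sdh (the assembly factors Sdhaf left out), Cox4, Cox5, Cox6, Cox7 or Cox8, with a signal over 107 on at least 3 of 12 arrays. The value 107 was the median of all signals, and where several probe sets of a gene passed, the one of highest mean signal stood for it. The rule gave 70 genes of 12845 tested. They comprised 33 genes of complex I, 4 of complex II, 8 of complex III and 15 of complex IV, 8 complex I assembly factors, and the paralog Ndufa4l2 and supercomplex factor Cox7a2l. The array carried 73 such genes in 148 probe sets, of which 135 passed the signal filter. The 3 genes that did not pass were the muscle-type subunit Cox8b (over the threshold on 2 arrays, highest signal 166), the testis-type subunit Cox7b2 (0 arrays, highest signal 84) and Ndufb4 (1 array, highest signal 111). Ndufb4 was read by a single probe set, and probe sets with several symbols were left out, so whether it was expressed is not judged here. Just inside the threshold were Ndufa4l2 on 5 arrays (3 of them C-, so that it passed only through that group), Cox4i2 on 8, Cox6a2 and Cox7a1 on 9 each, and Cox6b2 on 10, and the other 65 genes exceeded it on all 12 arrays.

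The study profiled serotonin neurons of mouse embryos at E12.5. All 4 groups carried the ePet-EYFP transgene, which labels serotonin neurons, and differed in domain and in sorting gate. R+ and R- were YFP-positive and YFP-negative cells from the rostral neural tube, between the mesencephalic and pontine flexures. C+ and C- were YFP-positive and YFP-negative cells from the caudal domain, which ran from the pontine flexure into the spinal cord. Each group had 3 arrays, made from 200000 sorted cells each. R- and C- were thus mixtures of all other dissociated cells of their domain and not a defined cell type. The comparisons of groups follow from this layout: R+ against R- and C+ against C- ask what separates serotonin neurons from their neighbours, and R+ against C+ and R- against C- ask what separates the domains.

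The respiratory chain of the inner mitochondrial membrane passes electrons from NADH (complex I) and succinate (complex II) through ubiquinone to complex III, then by cytochrome c to complex IV, which reduces oxygen. Complexes I, III and IV pump protons, and ATP synthase uses the gradient. Most subunits are encoded in the nucleus and join the few core subunits encoded in mitochondrial DNA, which are not part of the gene set here. Complex I is built from an NADH-oxidising N module, a ubiquinone-reducing Q module and a proton-pumping membrane arm, with the help of assembly factors that are absent from the finished enzyme. Developing neurons are known to shift from glycolysis towards oxidative phosphorylation as they leave the cell cycle.

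Promoters are shown because the members are known as a coordinated group whose transcription is driven in part by nuclear respiratory factor 1 (NRF1), by GA-binding protein (DNA-binding subunit GABPA) and by YY1. RefSeq promoters on GRCm38.p6, each running from 250 bases before to 50 bases after the gene start, matched 56 of the 70 genes with 58 promoters. Searched on both strands, the NRF1 motif, which is GCGCA, then any base, then GCGC, stood in 11 of the 58 promoters (19.0%, against 4.6% of 32851 promoters of the same length). The GABPA motif CCGGAAGT stood in 4 (6.9%, against 3.89%) and the YY1 motif AAGATGGC in 7 (12.1%, against 2.75%). Matches to these 3 motifs did not overlap one another in any member promoter, and 22 of 58 held at least 1 of them (37.9%, against 10.4%). The 11 promoters with NRF1 and the 22 with any motif belong to 10 and 21 genes, since 2 overlapping Ndufa5 promoters share 1 NRF1 match. The background holds all RefSeq promoters of that length and not only those of the genes tested. A match describes letters in a window and is neither a measured site nor a cause. The 4 promoters below are those of Uqcrc1 at chr9:108936398-108936697 (plus strand, 2 NRF1 matches) and Sdha at chr13:74350191-74350490 (minus strand, 3 NRF1 matches), and of Sdhb at chr4:140961021-140961320 (plus strand) and Ndufaf1 at chr2:119662785-119663084 (minus strand). Sdhb and Ndufaf1 hold no match. Uqcrc1, Sdhb and Ndufaf1 passed a test below and Sdha passed none. Of the 8 genes that passed a test, all 8 had a promoter and 1, Uqcrc1, held a match. Capitals mark NRF1 matches, 5′ to 3′ on the strand of the gene.
Uqcrc1: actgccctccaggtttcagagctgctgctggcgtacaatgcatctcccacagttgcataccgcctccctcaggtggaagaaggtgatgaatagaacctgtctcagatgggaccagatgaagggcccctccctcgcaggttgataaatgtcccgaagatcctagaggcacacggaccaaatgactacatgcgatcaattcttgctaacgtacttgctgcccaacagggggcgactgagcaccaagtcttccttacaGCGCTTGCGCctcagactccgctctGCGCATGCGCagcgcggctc
Sdha: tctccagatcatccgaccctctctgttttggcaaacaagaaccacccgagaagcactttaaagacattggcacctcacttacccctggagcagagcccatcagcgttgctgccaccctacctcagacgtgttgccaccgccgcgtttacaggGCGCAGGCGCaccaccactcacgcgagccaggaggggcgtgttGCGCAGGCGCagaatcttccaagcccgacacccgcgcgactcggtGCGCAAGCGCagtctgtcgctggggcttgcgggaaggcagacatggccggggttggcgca
Sdhb: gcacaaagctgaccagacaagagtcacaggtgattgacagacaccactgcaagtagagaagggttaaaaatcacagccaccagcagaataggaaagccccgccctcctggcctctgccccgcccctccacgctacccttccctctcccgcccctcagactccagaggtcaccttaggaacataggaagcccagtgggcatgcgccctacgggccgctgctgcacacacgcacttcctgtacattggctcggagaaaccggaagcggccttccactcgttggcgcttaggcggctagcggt
Ndufaf1: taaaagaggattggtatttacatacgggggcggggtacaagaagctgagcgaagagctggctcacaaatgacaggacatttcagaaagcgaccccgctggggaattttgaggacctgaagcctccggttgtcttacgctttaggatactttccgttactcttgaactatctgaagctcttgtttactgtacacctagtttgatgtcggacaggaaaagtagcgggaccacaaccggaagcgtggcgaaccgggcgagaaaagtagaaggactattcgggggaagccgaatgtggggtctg

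Signals are MAS5 values on a linear intensity scale. With 3 arrays per group, the number of arrays limits the precision. Array medians lay between 93 and 121. The 9 serotonin markers passed the test as higher in both sorts (summed signal 64042 to 70752 in R+ against 4784 to 5177 in R-, and 45307 to 50455 in C+ against 2367 to 3364 in C-), so the sort labels held. Means of Tph2 (46 in R- and 26 in C-), Slc6a4 (103 and 36) and Maob (58 and 28) were below the filter threshold. Gch1 (146 and 74) and Slc18a2 (138 and 70) were above it in R- only. The largest means in both YFP-negative groups were those of Ddc, Gata2, Gata3 and Lmx1b. Whether these sums hold a remaining serotonin neuron signal was not tested. Progenitor markers were lower in both sorts (8 of 8 rostrally, summed signal 18970 to 21534 in R+ against 50024 to 61087 in R-; 7 of 8 caudally, 19921 to 25604 in C+ against 49763 to 52588 in C-). Red cell markers were lower for 4 of 4 in both (17920 to 23784 in R+ against 47879 to 66677 in R-; 10158 to 20217 in C+ against 49263 to 56721 in C-). Cell cycle markers were lower for 8 of 9 in both (7740 to 10772 in R+ against 18974 to 25589 in R-; 6701 to 8928 in C+ against 14985 to 17829 in C-). The ratio of 3′ to 5′ beta-actin signal, a measure of RNA quality in which a high value means loss of 5′ sequence, split the arrays by domain: 2.64, 3.48 and 3.6 in R+ and 4.52, 5.93 and 6.92 in C+, and 2.88, 4.39 and 3.3 in R- and 4.89, 4.66 and 7.69 in C-. All 6 rostral arrays lay below all 6 caudal arrays in this ratio, so domain and this ratio cannot be told apart. The same ratio for Gapdh was 1.18, 1.69 and 1.26 in R+ and 1.6, 3.36 and 4.63 in C+, and 1.15, 2.14 and 1.17 in R- and 1.54, 2.06 and 2.5 in C-. Its rostral range (1.15 to 2.14) and caudal range (1.54 to 4.63) overlapped.

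**Figure D1:**
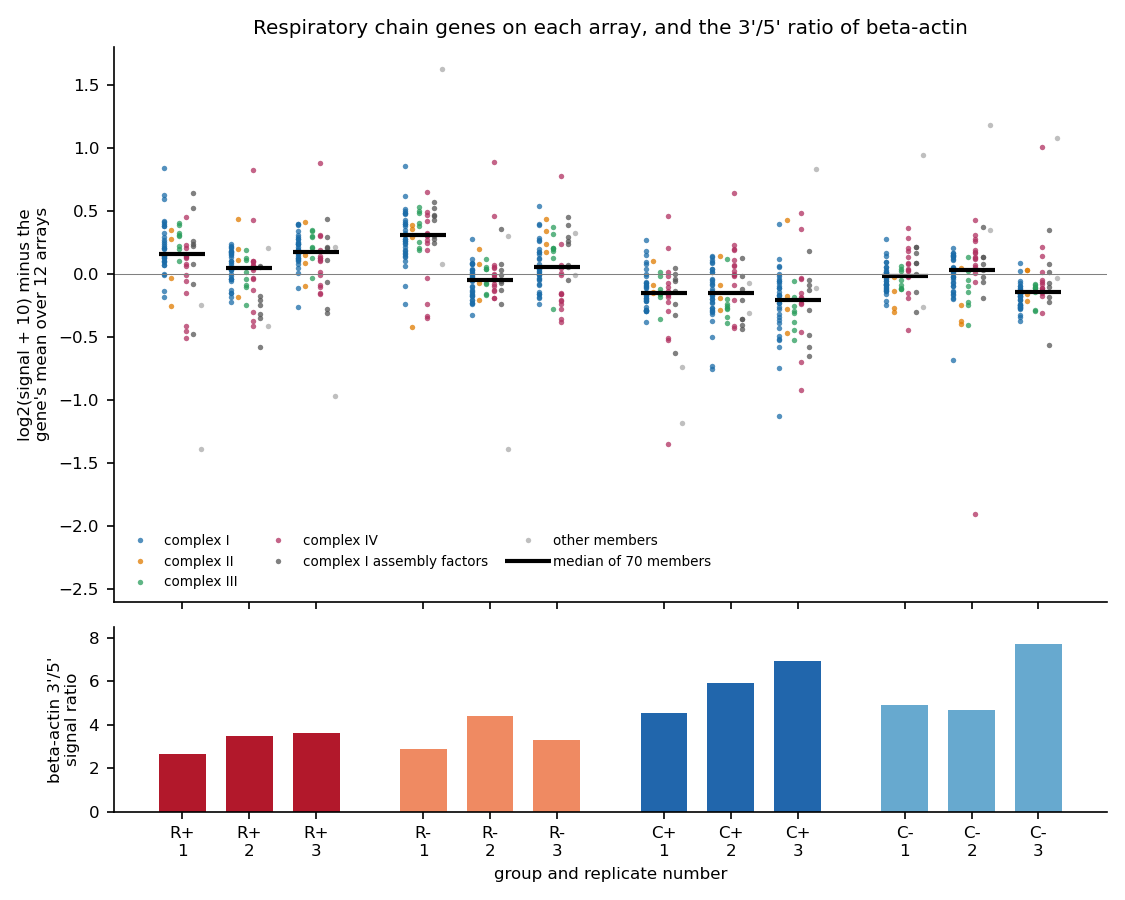
Log2 signal of each of the 70 genes on each of the 12 arrays, as the deviation from the gene's mean over all arrays (dots, by complex) with the median of the genes (black bars), above the 3′/5′ beta-actin ratio of the same array (bars). The median lies below 0 on all 3 C+ arrays and above 0 on all 3 R+ arrays, and the ratio is higher on all caudal than on all rostral arrays.

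Across the 70 genes the serotonin neurons of the caudal domain stood lowest. The median deviation of the members from their own means was 0.16, 0.04 and 0.18 (log2) on the R+ arrays and -0.15, -0.15 and -0.21 on the C+ arrays, with 0.31, -0.05 and 0.06 on the R- arrays and -0.02, 0.03 and -0.14 on the C- arrays. The C+ mean was the lowest of the 4 group means for 54 of 70 genes (77.1%, against 27.1% of all genes tested), and the R+ mean was the highest for 35 (50%, against 21.1%) and the R- mean for 27 (38.6%, against 23.2%). The Gapdh 3′/5′ ratio was highest in C+, at 3.2 ± 1.52 in C+ against 2.03 ± 0.482 in C- (SD, n = 3 arrays each), with C+ above C- in all 3 numbered pairs, while the beta-actin ratio was alike in C+ and C- (5.79 and 5.75 on average). The part of RNA quality in the low C+ values was not tested for Gapdh. In bulk samples, fewer cells of a type and less RNA per cell cannot be told apart.

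Between serotonin neurons and the other cells of the same domain, a single respiratory chain gene passed the threshold in each domain, and it was the same gene. This was Ndufaf1, a complex I assembly factor that helps to build the membrane arm, and it was lower in the serotonin neurons of both domains. The test was limma on log2(signal + 10), with Benjamini-Hochberg adjustment over all 12845 genes and a threshold of 0.05. One member of 70 is 1.43%, against 12.3% of all genes called in R+ against R- (4.45% higher and 7.88% lower) and 13.2% in C+ against C- (5.78% higher and 7.38% lower). At an unadjusted p under 0.05 there were 3 members rostrally and 1 caudally (23.2% and 24.2% of all genes). The median log2 difference of the members was 0.02 in R+ against R- (-0.01 over all genes), with 38 of 70 above 0 (54.3%, against 48.6% of all genes). In C+ against C- it was -0.13 (-0.03 over all genes), with 12 of 70 above 0 (17.1%, against 46.3%). Scaling all arrays to a common median left the caudal median at -0.035. Array medians were 95, 109 and 110 in C+ and 95, 121 and 121 in C-, so this scaling raised all genes in C+ relative to C-. The value of -0.035 is therefore not comparable with the -0.03 over all genes, which is without that scaling. The 95% confidence interval lay within a 2-fold change either way for 65 members in each sort, and within 0.5 (log2) for 45 in the rostral and 42 in the caudal sort. Larger differences thus lay outside the intervals for most members, while differences below 0.5 remained inside many of them.

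Ndufaf1 had signals of 445, 485 and 595 in R+ and 841, 801 and 853 in R-, and 398, 482 and 507 in C+ and 724, 808 and 793 in C-. All 6 YFP-positive arrays were below all 6 YFP-negative arrays, with no overlap in either domain. The means were 508 ± 77.7 in R+ and 832 ± 27.2 in R- (SD, n = 3 arrays each), a log2 difference of -0.71 ± 0.16 (SE; fold 0.612, limma adjusted p = 0.00766). In the caudal domain they were 462 ± 57.1 in C+ and 775 ± 44.8 in C-, a difference of -0.74 ± 0.16 (fold 0.599, adjusted p = 0.00536). The call did not hold in fits without some arrays: without the arrays numbered 2 the adjusted p was 0.129 rostrally and 0.104 caudally, and without those numbered 3 it was 0.077 and 0.0831. Ndufaf1 is represented by a single kept probe set. Progenitor, red cell and cell cycle markers were lower in the same YFP-positive arrays, as given above, and their part in this difference was not tested.

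**Figure D2:**
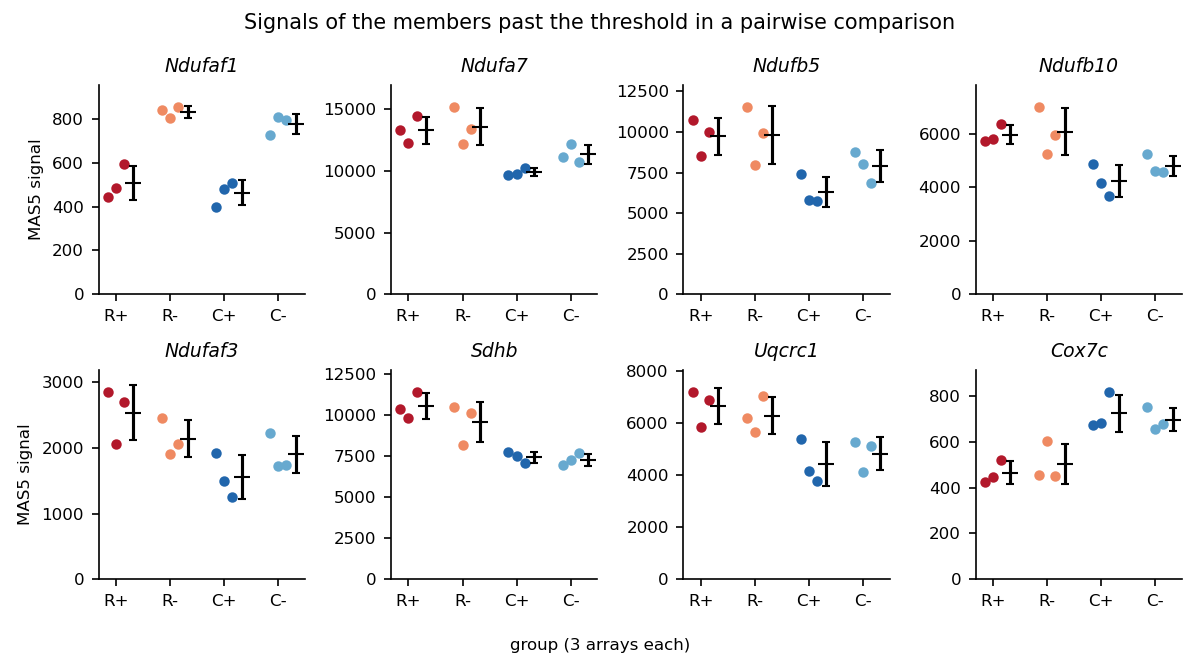
MAS5 signal (linear axis) of the 8 genes past the threshold in a comparison of groups, with 1 dot per array and the mean ± SD of 3 arrays in black, for R+, R-, C+ and C-. Ndufaf1 is lower in both YFP-positive groups, the 6 genes called higher in R+ than in C+ have all 3 R+ dots above all 3 C+ dots, and Cox7c is higher in both caudal groups.

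Replicate numbers paired the arrays, since same-numbered arrays deviated together, and removing the shared deviation added calls. With the number as a block, 1 member was higher and 2 were lower in R+ against R- (21.2% of all genes called, 8.88% higher and 12.4% lower), and 4 were lower in C+ against C- (23.1% of all genes called, 10.8% higher and 12.3% lower). Over both domains, YFP-positive against YFP-negative, 1 of 70 members was called without the block (Ndufaf1, lower; 21.7% of all genes called, 9.26% higher and 12.4% lower) and 4 with it, 1 higher and 3 lower (32.7% of all genes, 14.8% higher and 17.9% lower). Ndufv3, an accessory subunit of the N module, had signals of 11107, 10475 and 10640 in R+ and 9728, 7700 and 7967 in R-, and 8591, 9153 and 8604 in C+ and 8367, 9169 and 7833 in C-. Its R+ arrays were all above its R- arrays, while its C+ and C- arrays overlapped. The difference was 0.35 ± 0.11 in R+ against R- (adjusted p = 0.0625, with the block 0.0136). The assembly factor Ndufaf6 had signals of 437, 399 and 380 in R+ and 693, 459 and 569 in R-, and 478, 425 and 435 in C+ and 417, 441 and 490 in C-. The R+ arrays lay below the R- arrays and the caudal groups overlapped, with a rostral difference of -0.47 ± 0.18 (adjusted p = 0.104, with the block 0.0413).

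In the caudal sort the block added Cox7a2l, a factor that joins complexes into supercomplexes, Cox8a and Ndufb5, with Ndufaf1 called either way. Cox7a2l had signals of 7311, 9989 and 10055 in R+ and 9174, 10674 and 10865 in R-, and 5183, 8260 and 8029 in C+ and 7213, 11067 and 8490 in C-. In each numbered pair the YFP-positive array was the lower one, although the groups overlapped. The difference over both domains was -0.25 ± 0.14 (adjusted p = 0.24, with the block 0.0143). Of the gene's 3 kept probe sets, the dimmest gave -0.34 (limma adjusted p = 0.00948), and the remaining probe set was not called. Another gene with a called second probe set was Ndufv1, the flavoprotein that accepts electrons from NADH, at -0.34 (adjusted p = 0.0227), while its brightest probe set was not called. Ndufaf8, an assembly factor for complex I, had signals of 2806, 1995 and 2736 in R+ and 3273, 2421 and 3115 in R-, and 2010, 2051 and 1587 in C+ and 2368, 2425 and 2254 in C-. The C+ arrays lay below the C- arrays and the rostral groups overlapped, with a difference over both domains of -0.28 ± 0.12 (adjusted p = 0.114, with the block 0.0417).

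The complexes are given in the order of electron flow, each with the 2 members of largest difference between YFP-positive and YFP-negative cells. Complex I had a median log2 difference of 0.03 in R+ against R- and of -0.09 in C+ against C-. Beside Ndufv3, the largest was Ndufb1, an accessory subunit of the membrane arm, with signals of 587, 411 and 593 in R+ and 647, 406 and 658 in R-, and 423, 267 and 310 in C+ and 454, 402 and 426 in C-. The groups overlapped in both domains, and the difference over both was -0.23 ± 0.16 (adjusted p = 0.374). Complex II had medians of -0.03 rostrally and 0.11 caudally over its 4 subunits. Sdhc, a membrane anchor, had signals of 3007, 2073 and 2617 in R+ and 3082, 2701 and 2993 in R-, and 2217, 1928 and 1695 in C+ and 2320, 1785 and 2403 in C-, and Sdha, the flavoprotein that oxidises succinate, had 2683, 3462 and 3397 in R+ and 2395, 3384 and 3613 in R-, and 2890, 3535 and 4311 in C+ and 2652, 3305 and 3267 in C-. Neither gene separated its groups: the differences over both domains were -0.18 ± 0.12 for Sdhc (adjusted p = 0.341) and 0.12 ± 0.13 for Sdha (adjusted p = 0.596).

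Complex III had medians of -0.01 rostrally and -0.14 caudally. Its small subunit Uqcr10 had signals of 5605, 3810 and 5577 in R+ and 6395, 4639 and 5624 in R-, and 3530, 3740 and 3656 in C+ and 4175, 4374 and 4200 in C-, and the other small subunit Uqcrq had 11769, 8745 and 10914 in R+ and 13607, 8960 and 10861 in R-, and 8280, 7427 and 7230 in C+ and 9546, 8831 and 8707 in C-. In both genes the C+ arrays were all below the C- arrays and the rostral groups overlapped. The differences over both domains were -0.19 ± 0.11 for Uqcr10 (adjusted p = 0.262) and -0.16 ± 0.11 for Uqcrq (adjusted p = 0.347). Complex IV had medians of 0.02 rostrally and -0.14 caudally. Assembly factors had medians of -0.15 rostrally and -0.20 caudally, with Ndufaf1 the furthest from 0. Groups did not overlap for 11 members lower and 1 higher in C+ than in C- (14.9% and 12.3% of all genes), and for 2 lower and 1 higher in R+ than in R- (16.2% and 12.2% of all genes). The 11 include Ndufa4l2, which passed the signal filter only through its C- arrays. The share of members lower in C+ was near the background, and the other shares were below it.

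**Figure D3:**
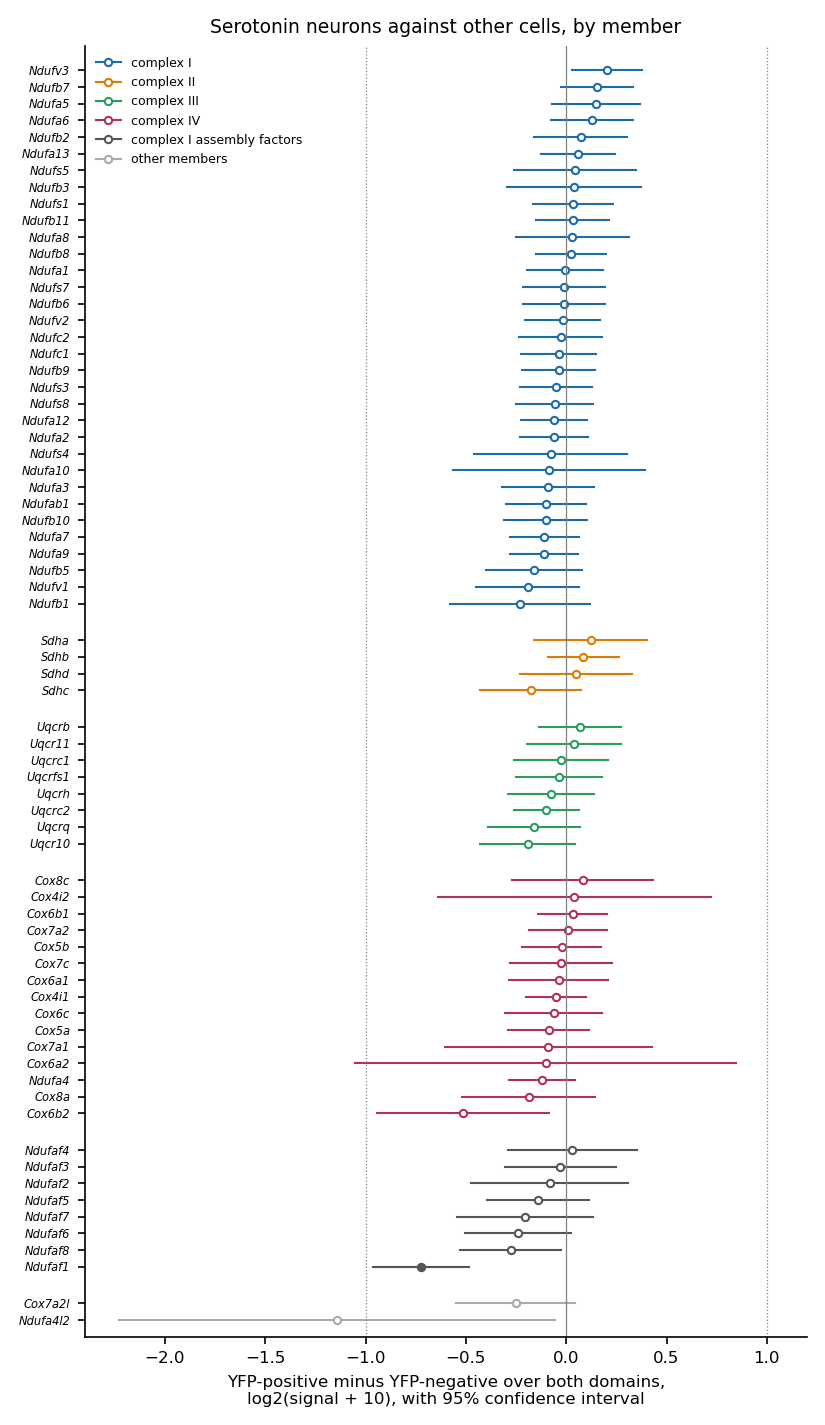
Log2 difference of YFP-positive over YFP-negative cells across both domains for each member (points, with 95% confidence intervals), grouped by complex, with dotted lines at a 2-fold change either way. Ndufaf1, the filled point, is the member past the threshold at -0.72, and the intervals of 68 of 70 members lie inside the dotted lines.

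Complex IV has subunits with tissue-specific isoforms, and both members of each pair were compared. Cox4i1, the ubiquitous form, had signals of 21606, 20685 and 21925 in R+ and 22672, 19719 and 20463 in R-, and 17018, 18704 and 17506 in C+ and 19483, 20784 and 18350 in C-. Its partner Cox4i2, the lung form that hypoxia induces, had 122, 225 and 133 in R+ and 95, 172 and 109 in R-, and 42, 141 and 160 in C+ and 106, 168 and 97 in C-. All 12 Cox4i1 arrays were bright, whereas 4 of the 12 Cox4i2 arrays were at or below the filter threshold of 107. For the Cox6a pair, Cox6a1 had signals of 30980, 30005 and 25108 in R+ and 34895, 26101 and 21430 in R-, and 26560, 29370 and 24197 in C+ and 30712, 33767 and 25478 in C-. The heart and muscle form Cox6a2 had 100, 108 and 278 in R+ and 211, 281 and 125 in R-, and 206, 170 and 73 in C+ and 151, 32 and 305 in C-. All 4 groups of both genes overlapped, and Cox6a2 varied as much within a group as between groups.

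For the Cox6b pair, Cox6b1 had signals of 24912, 23301 and 24303 in R+ and 26775, 22201 and 20290 in R-, and 20073, 22907 and 21918 in C+ and 22383, 22662 and 20336 in C-. The testis form Cox6b2 had 108, 134 and 169 in R+ and 207, 155 and 259 in R-, and 118, 107 and 104 in C+ and 171, 167 and 133 in C-. All C+ arrays of Cox6b2 lay below the C- arrays and the rostral groups overlapped, at signals near the filter threshold, and its difference over both domains was -0.51 ± 0.20 (adjusted p = 0.085). For the Cox7a pair, Cox7a2 had signals of 38360, 35017 and 32650 in R+ and 39545, 29952 and 27824 in R-, and 29869, 32736 and 29473 in C+ and 33432, 35681 and 30984 in C-. The heart and muscle form Cox7a1 had 114, 102 and 160 in R+ and 125, 133 and 135 in R-, and 86, 205 and 107 in C+ and 114, 161 and 129 in C-. In neither gene did a YFP-positive group separate from its YFP-negative group. Cox8a had signals of 19689, 13994 and 15747 in R+ and 22597, 12631 and 14493 in R-, and 14595, 10841 and 8876 in C+ and 17545, 13803 and 13213 in C-, with a caudal difference of -0.40 (adjusted p = 0.301, with the block 0.0121). The testis form Cox8c had 508, 715 and 659 in R+ and 447, 462 and 625 in R-, and 370, 571 and 517 in C+ and 386, 637 and 584 in C-. The C+ and C- arrays of Cox8a overlapped, although C+ was the lower in each numbered pair, and the groups of Cox8c overlapped in both domains. Levels of different probe sets are not compared, since probes differ in brightness. None of these 10 isoform genes passed the unblocked test in any comparison. The hypoxia-induced paralog Ndufa4l2 had signals of 17, 43 and 26 in R+ and 208, 17 and 60 in R-, and 21, 47 and 116 in C+ and 126, 150 and 139 in C-, of which 5 of 12 exceeded the threshold. Its rostral groups overlapped, its C+ arrays were below its C- arrays, and the difference over both domains was -1.14 ± 0.51 (adjusted p = 0.135). Ndufa4l2 passed the filter only through its C- arrays, so its separation of C+ from C- is partly set by that choice and no conclusion is drawn from it.

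Between the domains, the respiratory chain genes of serotonin neurons were mostly higher in R+ than in C+. The median log2 difference was 0.28 (median fold 1.22), against -0.05 over all genes, and 64 of 70 members were above 0 (91.4%, against 44.8%). Past the threshold were 6 higher members, namely Ndufa7, Ndufb5, Ndufb10, Ndufaf3, Sdhb and Uqcrc1, and 1 lower member, Cox7c (2.71% and 4.48% of all genes called higher and lower, 7.19% in all). The called higher members had folds of 1.34 to 1.63 with limma adjusted p between 0.0209 and 0.0417, and 34 members had an unadjusted p under 0.05 (22.9% of all genes). Groups did not overlap for 33 members higher and 2 lower (9.91% and 15.8% of all genes). In the same numbered pairs, R+ exceeded C+ in all 3 pairs for 54 members (77.1%, against 21.8% of all genes) and fell below it in all 3 for 5 (7.14%, against 31.3%). The medians by replicate number were 0.35, 0.15 and 0.33. The count of 7 called members depended on single arrays: it was 0 without R+ replicate 1 or 3 or C+ replicate 2 or 3, 4 without C- replicate 3, and 11 without R- replicate 1 or C+ replicate 1. The median stayed between 0.241 and 0.336 in the fits that left arrays out. With all arrays scaled to a common median 0 members were called (522 of all genes) and the median was 0.281.

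Among the complex I genes, Ndufa7, an accessory subunit of the Q module, had signals of 13269, 12212 and 14400 in R+ and 9695, 9755 and 10244 in C+, and 15159, 12148 and 13411 in R- and 11087, 12197 and 10678 in C-. Its R+ arrays were all above its C+ arrays and its YFP-negative groups overlapped. The difference of R+ over C+ was 0.42 ± 0.11 (SE; fold 1.34, adjusted p = 0.0382), and its 4 other kept probe sets gave 0.34 to 0.61. Ndufb5, an accessory subunit of the membrane arm, had signals of 10724, 8506 and 9966 in R+ and 7396, 5832 and 5764 in C+, and 11533, 7971 and 9909 in R- and 8790, 8018 and 6826 in C-. R+ lay above C+ without overlap, and R- and C- overlapped. The difference was 0.62 ± 0.16 (fold 1.54, adjusted p = 0.0296), and its other probe set gave 0.31 (adjusted p = 0.24). Ndufb10, of the same arm, had signals of 5709, 5799 and 6354 in R+ and 4850, 4157 and 3678 in C+, and 6989, 5246 and 5940 in R- and 5228, 4617 and 4557 in C-, and here all 6 rostral arrays exceeded all 6 caudal arrays. The difference was 0.50 ± 0.14 (fold 1.42, adjusted p = 0.0417). The assembly factor Ndufaf3 had signals of 2855, 2066 and 2697 in R+ and 1928, 1495 and 1258 in C+, and 2454, 1909 and 2064 in R- and 2229, 1734 and 1750 in C-. Its R+ arrays were above its C+ arrays, with overlap between R- and C-, and the difference was 0.71 ± 0.18 (fold 1.63, adjusted p = 0.0322).

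In complex II, Sdhb, the iron-sulfur subunit that passes electrons from the flavoprotein towards ubiquinone, had signals of 10381, 9829 and 11408 in R+ and 7743, 7502 and 7083 in C+, and 10492, 8186 and 10104 in R- and 6946, 7241 and 7683 in C-. All rostral arrays exceeded all caudal ones. The difference was 0.50 ± 0.12 in R+ against C+ (fold 1.41, adjusted p = 0.0209) and 0.39 ± 0.12 in R- against C- (adjusted p = 0.113, with the block 0.0167). Its promoter, shown above, held no match to the motifs searched. Sdha did not separate R+ from C+, with a difference of -0.16 (adjusted p = 0.664). In complex III, Uqcrc1, a core protein facing the matrix, had signals of 7193, 5858 and 6903 in R+ and 5384, 4145 and 3771 in C+, and 6198, 5647 and 7025 in R- and 5261, 4112 and 5112 in C-. All rostral arrays again exceeded all caudal ones, with a difference of 0.60 ± 0.15 (fold 1.51, adjusted p = 0.0334), and its promoter held 2 NRF1 matches. The corresponding R- against C- difference was 0.38 (adjusted p = 0.253, with the block 0.0417).

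In complex IV the called member ran the other way. Cox7c, a small structural subunit, had signals of 423, 448 and 520 in R+ and 672, 683 and 816 in C+, and 454, 603 and 452 in R- and 752, 656 and 676 in C-. All 6 rostral arrays were below all 6 caudal arrays, and the R+ against C+ difference was -0.63 ± 0.17 (fold 0.646, adjusted p = 0.0367). This probe set is of a type that can detect several transcripts of a family, and the second Cox7c probe set gave -0.29 (adjusted p = 0.607). Over all members, 4 had every rostral above every caudal array, namely Ndufa9, Ndufb10, Sdhb and Uqcrc1 (5.71%, against 1.18% of all genes), and 1 had the reverse, Cox7c (1.43%, against 2.37%).

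By complex, the median R+ against C+ difference was 0.31 in complex I, 0.27 in complex II, 0.41 in complex III, 0.19 in complex IV and 0.20 for the assembly factors. Within complex I it was 0.36 in the membrane arm, 0.20 in the Q module and 0.18 in the N module. Differences between these medians were not tested. With the replicate number as a block, 34 members were called higher and 2 lower, against 9.19% and 12.4% of all genes. These were 19 genes of complex I, 2 of complex II, 7 of complex III, 3 of complex IV (Cox4i1, Cox8a and Ndufa4), 2 assembly factors and Cox7a2l, with Cox7c and Ndufs1 lower. Ndufa10, an accessory subunit of the membrane arm, had signals of 5864, 3814 and 4278 in R+ and 3720, 1938 and 1489 in C+, and 5944, 3038 and 4291 in R- and 3606, 2039 and 2586 in C-. Its R+ arrays were all above its C+ arrays and it had the widest difference, 1.05 ± 0.32 (fold 2.07, adjusted p = 0.0605, with the block 0.000308). Its dimmer probe set gave -0.01 (adjusted p = 0.992). Ndufs1, the large iron-sulfur subunit of the N module, had signals of 1938, 1874 and 1769 in R+ and 2369, 2342 and 2802 in C+, and 1801, 2252 and 1900 in R- and 2123, 2450 and 2165 in C-. Its R+ arrays were all below its C+ arrays, with a difference of -0.42 ± 0.13 (adjusted p = 0.0698, with the block 0.0153).

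**Figure D4:**
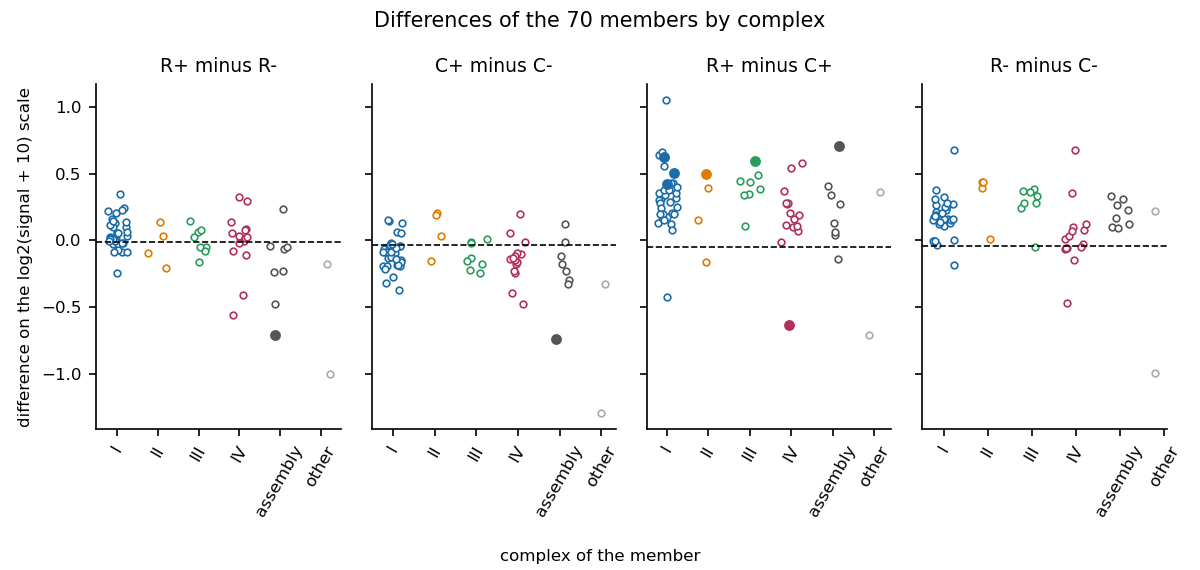
Log2 difference of each member in R+ over R-, C+ over C-, R+ over C+ and R- over C- (panels), by complex, with filled points past an adjusted p of 0.05 and a dashed line at the median of all genes. In R+ over C+ most points of every complex lie above the dashed line, with 6 filled points above it and Cox7c filled below it.

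A second set of 65 other kept probe sets, from the 39 genes with several, was not used to choose or test the members. Of these, 52 were above 0 in R+ against C+ and the 8 called were all higher, from Cox7a2l, Ndufa7, Ndufab1, Ndufb11, Ndufb2, Ndufb7, Ndufc1 and Ndufc2. The sign was that of the gene's brightest probe set for 55 of 65. They share RNA and genes with the first set and are not independent samples.

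The RNA quality ratio moved with this comparison. The beta-actin 3′/5′ ratio averaged 3.24 ± 0.524 in R+ against 5.79 ± 1.2 in C+, and 3.52 ± 0.776 in R- against 5.75 ± 1.69 in C- (SD, n = 3 each). With the ratio as a covariate, the median R+ against C+ difference of the members was 0.10, against 0.08 over all genes, and 0 members were called (213 of all genes). At an unadjusted p under 0.05 there were then 4 members (5.71%, against 13.4% of all genes), and 49 of 70 were above 0 (70%, against 57.8%). Sdhb was then at 0.41 (adjusted p = 0.309) and Uqcrc1 at 0.40 (adjusted p = 0.453). The Gapdh ratio averaged 1.38 ± 0.277 in R+ against 3.2 ± 1.52 in C+. Marker sums also moved with domain, without overlap for 3 lists. Serotonin markers summed to 64042 to 70752 in R+ against 45307 to 50455 in C+ (3 of 9 called higher). Of the 9, 6 were above 0 in R+ against C+, while Gata2 (-0.38), Gata3 (-0.25) and Lmx1b (-0.12) ran the other way. Macrophage markers summed to 893 to 2278 in R+ against 447 to 647 in C+ (1 of 3 called higher), and mesenchyme markers to 437 to 537 in R+ against 2691 to 3138 in C+ (1 of 5 called lower). All 5 mesenchyme markers were below 0, and the called one was Dcn (-4.282). In C+ against C-, however, Dcn was at 2.498 and the other mesenchyme markers at -2.675 to -1.15. Likewise, in R+ against R-, Lyz2 was at 2.466 and the other macrophage markers, Csf1r and Cx3cr1, at -0.1439 and -0.2666. These 2 sums are therefore not read as amounts of a cell type. The sums of general neuron, cell cycle, progenitor, red cell and endothelium markers overlapped between R+ and C+. The part of these marker differences in the R+ against C+ difference of the members was not tested. Domain and the beta-actin ratio did not overlap between arrays, so their parts in the R+ against C+ difference cannot be told apart.

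Among the YFP-negative cells of the same domains the difference was smaller in size and no member passed the threshold. The median of R- against C- was 0.16 (-0.04 over all genes), with 56 of 70 above 0 (80%, against 44.7%), and 0 were called (2.80% of all genes, 1.03% higher and 1.78% lower). Unadjusted, 12 members had p under 0.05 in limma, and with the replicate block 5 were called, all higher in R- and namely Ndufa10, Sdhb, Sdhc, Uqcrc1 and Uqcrfs1 (10.3% of all genes, 4.49% higher and 5.82% lower). Complex II had a median of 0.41, complex III of 0.31, complex I of 0.16 and complex IV of 0.01. Groups did not overlap for 8 members higher in R- (Ndufa9, Ndufb10, Sdhb, Sdhc, Uqcr10, Uqcrc1, Uqcrc2 and Uqcrfs1) and for Cox7c lower (8.23% and 10.8% of all genes). Medians by replicate number were 0.34, -0.05 and 0.21, so the arrays numbered 2 did not share the direction. Among these cells, too, some marker sums were apart between domains. Serotonin markers summed to 4784 to 5177 in R- against 2367 to 3364 in C-. Of these markers Ddc differed most (mean 1458 in R- against 126 in C-), and Lmx1b ran the other way (555 against 915). Cell cycle markers (18974 to 25589 in R- against 14985 to 17829 in C-) and mesenchyme markers (604 to 982 in R- against 1791 to 3007 in C-) were also apart. The part of these marker differences was not tested.

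The test of whether the sort difference itself varied with domain, (R+ minus R-) minus (C+ minus C-), called 0 of 70 members (1.14% of all genes, 0.467% higher and 0.677% lower) and 0 with the block (2.69%, 1.13% higher and 1.56% lower). Its median was 0.15 (-0.01 over all genes), with 58 of 70 above 0 (82.9%, against 48.7%). At an unadjusted p under 0.05 there was 1 member, Ndufb8 of the membrane arm, at 0.41 ± 0.16 (adjusted p = 0.532). Its signals were 17309, 16505 and 16304 in R+ and 16498, 12823 and 13654 in R-, and 12742, 12818 and 12925 in C+ and 14599, 16069 and 13115 in C-. R+ exceeded R- and C+ lay below C- in all 3 numbered pairs.

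Other mitochondrial gene lists were read against the same background, in R+ against C+ 2.71% of all genes called higher and 4.48% lower, and with the block 9.19% and 12.4%. Of 19 ATP synthase subunits, 18 were above 0 in R+ against C+ (median 0.27) and 1 was called higher, Atp5o at 0.61 (adjusted p = 0.0296), with 10 called with the block. Of 76 mitochondrial ribosome proteins, which translate the core subunits encoded in mitochondrial DNA, 71 were above 0 (median 0.35), and the 13 called were all higher, led by Mrps11 at 1.27 and Mrpl34 at 1.23, with 39 called with the block. Of 6 further genes for electron carriers and dehydrogenases of the chain, 1 was called higher in R+, the cytochrome c1 gene Cyc1 at 0.48 (adjusted p = 0.0256), with 2 higher and 1 lower with the block. Of 30 other assembly factors, 2 were called higher, Coa3 at 0.77 and Sdhaf4 at 0.56, with 6 higher and 1 lower with the block. The tricarboxylic acid cycle list had a median of -0.08 with 0 of 18 called by limma (4 at an unadjusted p under 0.05), and 2 higher and 2 lower with the block.

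Between YFP-positive and YFP-negative cells over both domains, 7 mitochondrial ribosome proteins passed the test. Without the block this was a smaller share than that of all genes (9.26% called higher and 12.4% lower, with the block 14.8% and 17.9%). The median of the list was -0.18, and the 7 of 76 called were all lower, led by Mrpl16 at -0.81 and Mrps36 at -0.49. With the block these counts were 24 lower and 1 higher, and the share called lower was then above the 17.9% of all genes. ATP synthase had 0 of 19 called by limma (2 at an unadjusted p under 0.05), with 1 higher and 1 lower with the block, and a median of -0.08. Among the 6 further genes of the chain, Etfa, which feeds electrons from fatty acid oxidation into the chain, was the 1 called, lower at -0.60, with 2 lower with the block. Of the 30 other assembly factors Cox16 was called, lower at -0.46, and with the block 2 were higher and 2 lower. In the tricarboxylic acid cycle list 2 of 18 were called, both lower: Suclg2 at -0.86, a subunit of succinyl-CoA ligase, and the pyruvate carboxylase gene Pcx at -0.64, with 1 higher and 3 lower with the block.

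**Figure D5:**
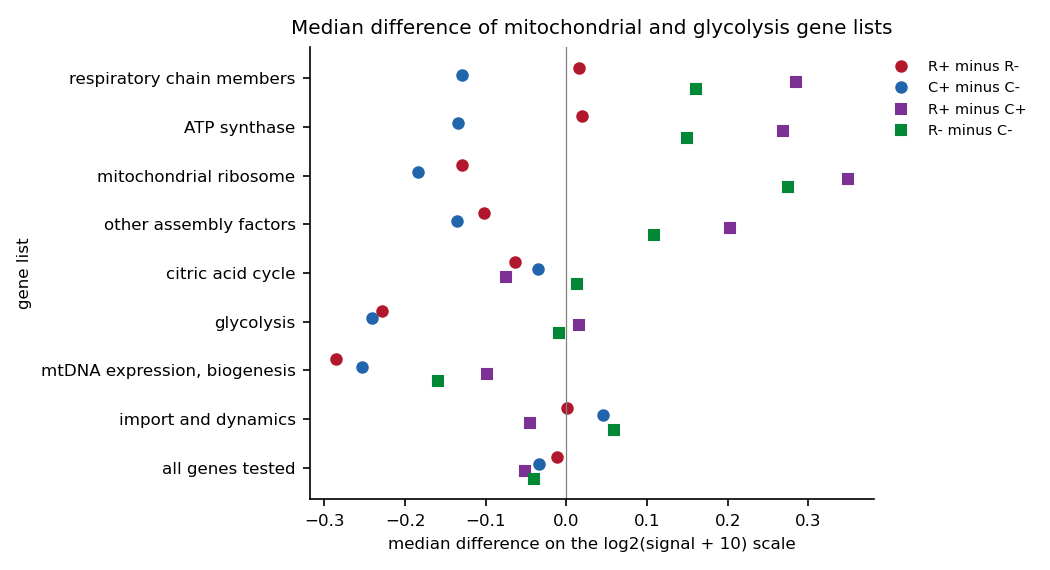
Median log2 difference of each mitochondrial and glycolytic gene list in R+ over R-, C+ over C-, R+ over C+ and R- over C-. The glycolysis list includes Pigq, which is not a glycolysis gene. The respiratory chain genes, ATP synthase and mitochondrial ribosome lists lie above 0 in R+ over C+ (medians 0.28, 0.27 and 0.35), and the tricarboxylic acid cycle list lies at -0.08.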

How the data were processed

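Each of the 12 arrays held RNA of sorted mouse embryo cells hybridised to an Affymetrix Mouse 430 2.0 array, 3 per group. The deposited values are MAS5 signals (version not given in the sources used here), per the submitters' processing notes. They are linear intensity values in whole numbers, and the authors' scaling left every array with a mean of 500 once the lowest and highest 2% were trimmed. Of 45101 probe sets, 64 were controls. Probe set symbols came from the platform annotation table: 34945 had a single symbol, of which 22030 passed the signal filter, 932 had several and 9160 had none. 10 probe sets of the chain with several symbols were left out. The symbols of all 70 members were unchanged in RefSeq.

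Analysis used R 4.3.3 with limma 3.58.1, Python 3.11.15, pandas 2.3.3 and matplotlib 3.10.9. Signals were taken as log2(signal + 10), which understates changes of dim genes. All 12 arrays entered a fit with 1 mean for each group (eBayes with trend, two-sided), and p-values were adjusted by Benjamini-Hochberg over 12845 genes per contrast at 0.05. The labels call the 3 arrays of a group biological replicates without naming litters; the p-values therefore cover the spread among these arrays, which may be partly technical. Same-numbered arrays of different groups deviated together (correlation 0.118 to 0.52 in 18 of 18 pairs, against -0.397 to 0.268 in 36 pairs of different numbers), so the fit with the number as a block is given where it changes a call. Alternatives were the scaling, offset, filter, probe set rule, trend, actin ratio, groups fitted and arrays left out. Values are given for every array of members past the threshold, of the 2 members per complex with the largest YFP difference and of the cytochrome oxidase isoform pairs, and at most 2 called genes are named per other list. Genes of the set were left out of the other gene lists. The members and all gene lists were chosen with earlier results of these data known.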

Additional observations from a re-analysis of the deposited data

How the results depend on the processing

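Fits were repeated under 28 alternatives, of which 4 (leaving out all arrays of a replicate number, and the block together with the actin ratio) were chosen after seeing the data. The number of members called in R+ against R- (1) became 2 with quantile normalization, 3 with the replicate block, 3 with the block and actin ratio, and 0 to 2 with arrays left out. In C+ against C- (1) it became 4 with the replicate block, 4 with the block and actin ratio, and 0 to 2 with arrays left out. Over both domains (1) it became 3 with quantile normalization, 4 with the block, 2 without the eBayes trend, 2 with the actin ratio, 7 with the block and ratio, and 1 to 2 with arrays left out. In R+ against C+ (7) it became 36 with the replicate block, 4 without the signal filter, 3 with only the groups compared in the fit, 1 without the trend, 0 with a common array median, 0 with the actin ratio or with the block and ratio, and 0 to 12 with arrays left out. In R- against C- (0) it became 5 with the block and 0 to 1 with arrays left out. The difference of differences gave 0 under all 28.

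The median difference kept its sign under all 28 in R+ against C+ (0.0694 to 0.336; 0.097 with the actin ratio, 0.0694 with block and ratio, 0.241 to 0.336 with arrays left out) and in C+ against C- (-0.169 to -0.035; -0.035 with a common array median, -0.0938 with quantile normalization, -0.169 to -0.0741 with arrays left out). The median of R- against C- was above 0 under 27 of 28 (-0.0168 to 0.267, and 0.0826 to 0.267 with arrays left out). That of R+ against R- was above 0 under 21 (-0.0483 to 0.0923), and that over both domains under 2 (-0.084 to 0.0052). The difference of differences had a median above 0 under all 28 (0.0568 to 0.238). For single genes in R+ against C+, the sign reversed with the actin ratio for Cox8a (-0.13), Ndufb3 (-0.39) and Ndufs4 (-0.29). It reversed with block and ratio for Ndufaf8 (-0.024) and Uqcr11 (-0.0098), and with the mean of all kept probe sets for Uqcrq (-0.48). In R- against C- it reversed with the actin ratio for Ndufa10 (-0.051). The causes were not tested. Over all named members and alternatives, 1484 values kept direction and side of the threshold, 99 lost a call, 89 gained one and 7 reversed. Among the members, the replicate block changed no call beyond the counts above. With 3 arrays a group, differences under 0.5 (log2) lie inside many confidence intervals.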

Other observations

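Glycolysis genes were split between YFP-positive and YFP-negative cells over both domains, where 9.26% of all genes were called higher and 12.4% lower (with the replicate block 14.8% and 17.9%). Of 17 tested, 2 were called higher by limma and 8 lower, with a median log2 difference of -0.23, and with the block 2 were higher and 9 lower. The 17 and their median include Pigq, which is not a glycolysis gene and was not called (0.13, limma adjusted p = 0.547). Pfkp, the platelet-type phosphofructokinase, was higher at 1.16 ± 0.13 (SE). Aldoc, the brain-type aldolase, was called lower at -1.03 ± 0.15, but the domains differed. It was at -1.84 in C+ against C- (limma adjusted p = 2.3e-05) and at -0.23 in R+ against R- (adjusted p = 0.607). Its difference of differences was 1.61 (limma adjusted p = 0.0124). Of 17 genes for mitochondrial DNA maintenance and biogenesis, 1 was called higher and 5 lower, with a median of -0.26, and with the block 1 was higher and 6 lower. Esrra, an orphan nuclear receptor that drives oxidative genes, was lower at -0.62 ± 0.15, and Gabpb1, a subunit of GA-binding protein, was higher at 0.49 ± 0.16. Of 22 genes for mitochondrial dynamics and transport, 1 was called higher and 2 lower, a smaller share than that of all genes without the block. With the block 4 were higher and 4 lower, shares slightly above the 14.8% and 17.9% of all genes. Slc25a5, an ADP/ATP carrier, was lower at -0.66 ± 0.07, and Timm50, a subunit of the inner membrane import complex, was lower at -0.44 ± 0.15. Progenitor and cell cycle markers were lower in the same arrays, and their part in these differences was not tested.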
